A study of Mus musculus with 6 samples.

Results

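The cytosolic ribosomal protein genes encode the proteins that, together with ribosomal RNA, build the large and the small subunit of the ribosome in the cytoplasm. They were taken as the genes whose symbol was Rpl or Rps followed by a number and at most 1 letter, Rplp0 to Rplp2, or Rpsa, in the first column of the count tables. This gave 82 of 42396 genes, 50 of the large subunit (Rpl and Rplp) and 32 of the small subunit (Rps and Rpsa). Among them, the GENCODE M21 annotation lists Rpl32l as a processed pseudogene and Rps4l as a processed transcript, both without a coding sequence. Ribosomal proteins are needed in near equal numbers, since a mature ribosome holds 1 copy of nearly every one of them, with the acidic stalk proteins as an exception. Their messenger RNAs are short and abundant and typically begin with a cytosine inside a run of pyrimidines, the terminal oligopyrimidine tract, through which the kinase complex mTORC1 controls their translation. In neurons these mRNAs are translated in the cell body and also in axons and dendrites. Mammalian genomes also hold many processed pseudogenes of these genes, which can take up their sequencing reads.

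RNA was sequenced from primary cultures of the ventral midbrain of wild-type mouse embryos at embryonic day 14, plated at 150000 cells per well and infected on the same day with lentivirus at a multiplicity of 5. The 3 knockdown libraries came from cultures given pll3.7-shRmstI, which expresses a short hairpin RNA targeting circRmst, the circular RNA of the long non-coding gene Rmst. The 3 control libraries came from cultures given the scramble hairpin pll3.7-Scr2. All were collected at 3 days in vitro from 2 to 3 wells per condition, and the comparison asks what depleting circRmst does to the transcriptome, beside the form and migration of the neurons. The labels name 3 independent cultures and do not say which libraries share one, so p-values below measure only the spread between these libraries. A gene-level count of Rmst adds its linear and circular transcripts, so it did not check the knockdown of circRmst, and only 1 hairpin was used.

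Between 35256611 and 43646521 counts fell on genes in the knockdown libraries, against 27248934 to 41982557 in the control libraries. The labels call the cells dopamine neurons, and all 10 defining markers of these neurons were detected, with a summed level of 519 to 617 CPM in the knockdown libraries and 539 to 635 CPM in the control libraries (CPM, counts relative to the library's total, scaled by TMM). The cultures also held other cells, since markers of radial glia and astrocytes summed to 1627 to 1802 CPM in knockdown and 1451 to 1839 CPM in control libraries. Levels in such bulk cultures cannot tell fewer cells of a type from less RNA per cell.

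The sequences at the transcription starts of highly expressed members show how variable the pyrimidine run was in the RefSeq annotation (GRCm38.p6). Each is given 5′ to 3′ on the gene's strand with 15 bases before the annotated start and 25 from it on, and capitals mark unbroken runs of at least 6 bases C or T. The first 3 are large subunit genes and the next 3 small subunit genes of high level, and Rpl15 and Rpl28 stand with them because the comparison below turns on them.
Rpl41, chr10:128549144-128549183, minus strand: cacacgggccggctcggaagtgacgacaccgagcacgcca
Rplp0, chr5:115559452-115559491, plus strand: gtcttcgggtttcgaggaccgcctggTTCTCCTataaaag
Rpl26, chr11:68901551-68901590, plus strand: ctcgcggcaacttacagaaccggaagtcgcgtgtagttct
Rps2, chr17:24720048-24720087, plus strand: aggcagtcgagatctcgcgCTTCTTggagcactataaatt
Rps26, chr10:128626482-128626521, minus strand: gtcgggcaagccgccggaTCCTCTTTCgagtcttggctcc
Rps15, chr10:80292416-80292455, plus strand: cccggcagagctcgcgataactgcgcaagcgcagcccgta
Rpl15, chr14:18270962-18271001, minus strand: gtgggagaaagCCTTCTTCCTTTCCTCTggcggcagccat
Rpl28, chr7:4792950-4792989, plus strand: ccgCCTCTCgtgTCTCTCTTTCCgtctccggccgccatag

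Of the 82 members, 61 had at least 1 promoter in the RefSeq table. Shares are of genes, and a gene was counted if any of its annotated promoters held the word. Genes with several annotated starts thus had more chances. In the window from 10 bases before to 20 bases after the start, on the gene's strand, 38 of these 61 members (62.3%) held a run of at least 6 pyrimidines, against 31.8% of 17431 other protein-coding genes. The pyrimidine words CTTTC or CTTTT, which overlap such runs, stood in the same window of 18 members (29.5%), against 7.02% of the other genes. The word CCGGAAG, a core of sites bound by Ets factors such as GABPA, was found on either strand of the region from 250 bases before to 50 after the start in 25 of 61 members (41.0%), against 12.85% of the others. AAGATGG, the core of the YY1 motif, stood there on either strand in 14.75% against 7.15%. The word TATAAA on the gene's strand was as frequent in the members as elsewhere, at 9.84% against 9.82%, and CCAAT on either strand was less frequent, at 31.1% against 42.4%. These shares count letters in annotated windows and say nothing of factor binding in these cultures.

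The members differed widely in level. In FPKM, the number of fragments per transcript length and library size, the 74 members that passed the filter on low counts spanned from 10.3 to 864, an 84.3-fold range, with a median of 91.7 for large subunit and 115 for small subunit genes. The lowest were Rps20 at 10.3 and Rps15a at 12.7 FPKM. Their 65.3 and 133 CPM were above the members' median of 41.4 CPM. Their principal transcripts in GENCODE are long for members, at 3706 and 5179 bases. The part of annotated length in the range was not tested. Among large subunit genes, Rpl41, which encodes a very small basic peptide of the ribosome, had the highest level, at 909, 953 and 726 FPKM in knockdown replicates 1 to 3 and 628, 893 and 1076 FPKM in control replicates 1 to 3. Rplp1, an acidic protein of the stalk that recruits elongation factors, had 364, 408 and 308 FPKM in the knockdown libraries against 324, 343 and 434 FPKM in the control libraries. The range of the control libraries spanned that of the knockdown libraries for Rpl41. Rplp0, the base of that stalk, had 262, 350.4 and 246 FPKM in knockdown against 231, 296 and 338 FPKM in control libraries. Rpl8, which lies near the peptidyl transferase centre, had 304, 315 and 223 FPKM in knockdown against 273, 264 and 288 FPKM in control libraries. Rpl26, near the exit of the peptide tunnel, followed at 251, 281 and 196 FPKM in knockdown against 206, 233 and 257 FPKM in control libraries. For all 5 of these genes the groups overlapped, and knockdown replicate 3 was the lowest of its group.

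Among small subunit genes, Rps2, at the entrance of the mRNA channel, had the highest mean, with 336, 386 and 263 FPKM in knockdown libraries against 249.8, 316 and 355 FPKM in control libraries. Rps14, a protein of the platform whose loss in humans underlies the anaemia of the 5q- syndrome, had 318, 378 and 255 FPKM in knockdown against 229, 302 and 394 FPKM in control libraries. Rps26, which touches the mRNA where it leaves the subunit, had 271, 283 and 198 FPKM in knockdown against 372, 271 and 306 FPKM in control libraries. The groups overlapped for these 3 genes as well. Rps15, near the decoding site, averaged 239 ± 47.5 FPKM in knockdown and 273.7 ± 17.1 FPKM in control libraries (SD, n = 3 each). Rps14 averaged 317 ± 61.4 FPKM in knockdown and 309 ± 82.4 FPKM in control libraries, a difference below either SD. For Rps15 the difference was below the SD of the knockdown libraries alone. Rps26 averaged 251 ± 46.1 FPKM in knockdown and 316 ± 51.1 FPKM in control libraries, a difference above either SD.

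**Figure D1:**
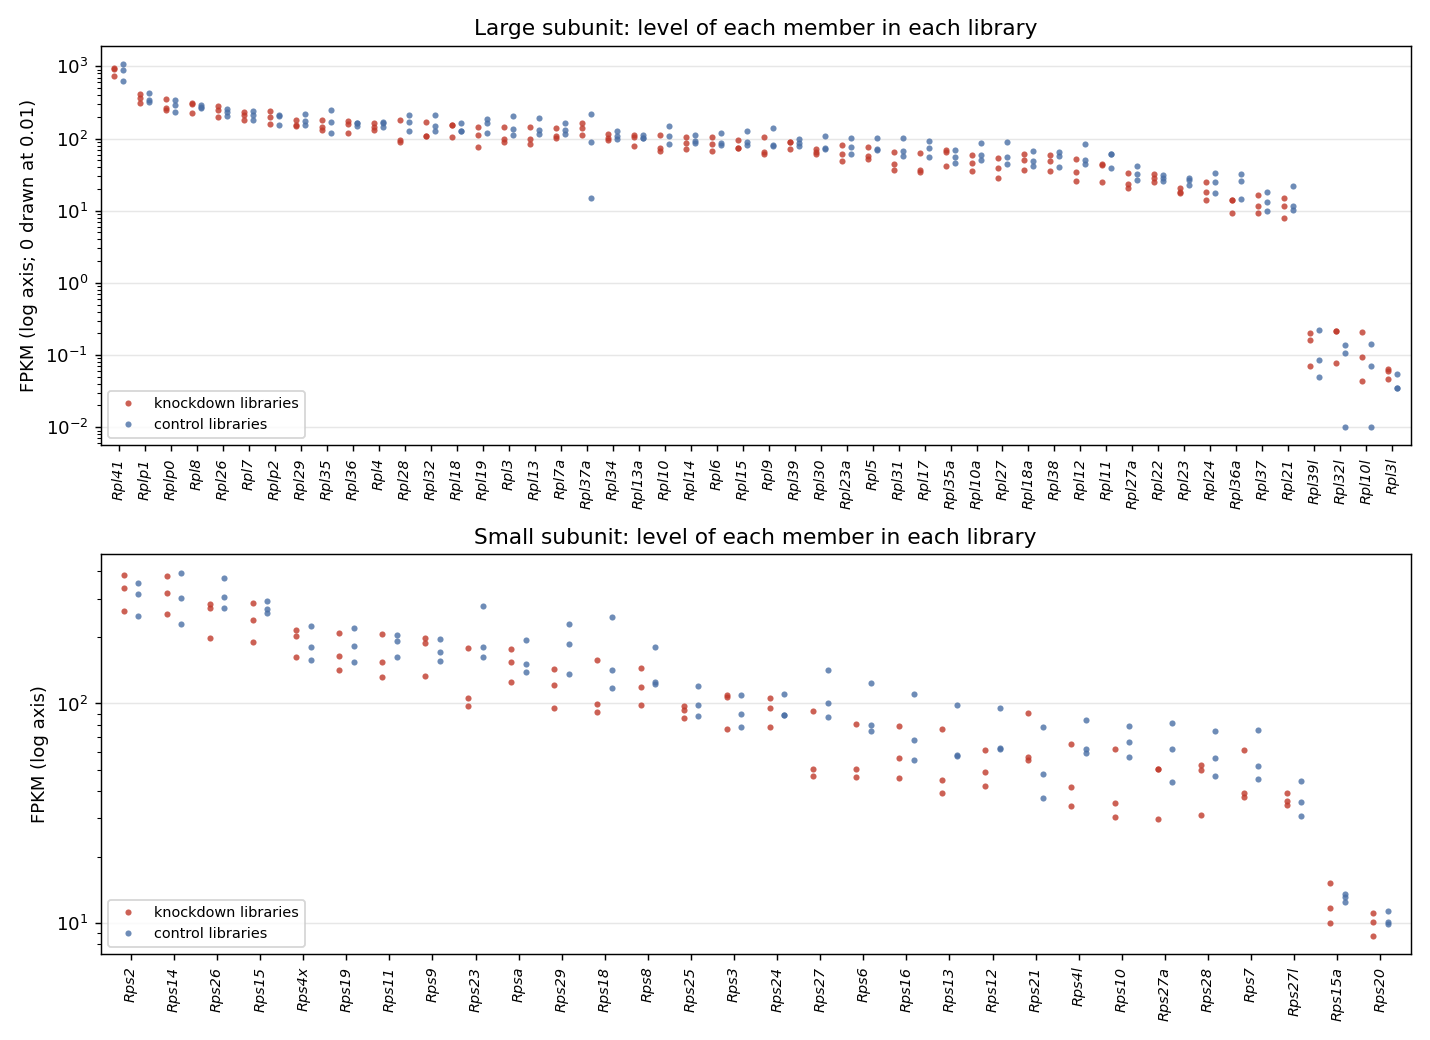
Level in FPKM (log axis) of the large and small subunit genes reported here, ordered by mean, with 1 point per library and knockdown libraries left of control libraries. Rpl41 stands highest, most members lie between 10.3 and 364 FPKM, and Rpl39l, Rpl32l, Rpl10l and Rpl3l lie far below all others.

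Of the 4 paralogs compared with their partners, Rpl3l, Rpl10l and Rpl39l were near absent and Rps27l was not. Rpl3l, the copy used in striated muscle, had 9, 8 and 7 counts in the knockdown libraries and 4, 3 and 6 counts in the control libraries, while Rpl3 had 2260, 1655 and 1543 counts in knockdown and 1693, 1942 and 1722 counts in control libraries. Rpl10l, a copy made in testis, had 2, 1 and 9 counts in knockdown and 2, 2 and 0 counts in control libraries. Rpl39l, also used in testis, had 1, 2 and 6 counts in knockdown and 1, 1 and 5 counts in control libraries, against 947 to 1332 counts of Rpl39 in knockdown and 880 to 1109 counts in control libraries. Such counts could not show a difference between groups. Rpl39 and Rpl39l share 85.3% of the 156 coding bases, differing at 23 of them, as the coding sequences of GENCODE M21 (GRCm38, Rpl39 on chromosome X and Rpl39l on chromosome 16) show with differing bases in capitals:
Rpl39: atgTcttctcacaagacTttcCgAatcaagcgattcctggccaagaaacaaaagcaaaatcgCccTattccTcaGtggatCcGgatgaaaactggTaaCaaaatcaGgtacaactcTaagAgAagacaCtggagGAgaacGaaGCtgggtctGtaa
Rpl39l: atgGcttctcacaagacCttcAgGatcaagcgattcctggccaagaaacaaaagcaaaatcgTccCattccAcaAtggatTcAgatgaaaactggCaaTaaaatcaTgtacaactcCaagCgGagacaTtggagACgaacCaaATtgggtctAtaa

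Rps27l, which in human cells is a target of p53, had 35.9, 39.2 and 34.5 FPKM in knockdown libraries against 30.6, 35.4 and 44.6 FPKM in control libraries, with 735 to 1032 counts in knockdown and 762 to 879 counts in control libraries. Rps27, its partner in the small subunit, averaged 63.3 ± 25.5 FPKM in knockdown and 110.1 ± 28.9 FPKM in control libraries (SD, n = 3 each). Both encode nearly identical zinc-finger proteins, but the genes differ at 61 of 255 coding bases, as marked in capitals (GENCODE M21, GRCm38, Rps27 on chromosome 3 and Rps27l on chromosome 9):
Rps27: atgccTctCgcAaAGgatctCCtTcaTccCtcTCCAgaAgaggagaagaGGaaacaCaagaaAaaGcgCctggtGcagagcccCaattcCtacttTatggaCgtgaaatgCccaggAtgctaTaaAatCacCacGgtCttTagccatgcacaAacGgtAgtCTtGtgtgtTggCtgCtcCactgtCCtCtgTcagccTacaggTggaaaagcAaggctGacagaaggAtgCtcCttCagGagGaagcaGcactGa
Rps27l: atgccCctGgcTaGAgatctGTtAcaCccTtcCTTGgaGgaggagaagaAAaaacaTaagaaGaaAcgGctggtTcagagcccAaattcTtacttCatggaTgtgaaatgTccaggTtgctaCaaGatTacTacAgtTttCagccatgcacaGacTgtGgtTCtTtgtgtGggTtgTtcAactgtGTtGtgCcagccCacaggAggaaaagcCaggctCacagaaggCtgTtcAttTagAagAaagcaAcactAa

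A second gene, Rps27rt on chromosome 9, has the coding sequence of Rps27 with 0 of 255 bases different. The counts split between them unevenly. Rps27 had 3.72, 5.19 and 2.63 CPM in knockdown and 3.27, 4.19 and 3.63 CPM in control libraries, while Rps27rt had 67.3, 83.4 and 64.0 CPM in knockdown and 74.2, 82.5 and 90.4 CPM in control libraries. Likewise Rps6, the substrate of S6 kinase, had 12.2, 13.4 and 12.02 CPM in knockdown and 14.1, 10.9 and 13.7 CPM in control libraries. Its pseudogene Rps6-ps4 had 138, 147 and 114 CPM in knockdown and 119, 132 and 158 CPM in control libraries. In every library the copy held more counts than the gene that is known to encode the protein.

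Counts and FPKM of the members differed with the amount of sequence shared with other loci. For each member, the share of 150-base windows of its mRNA that occurred in no other GENCODE gene elsewhere in the genome was taken as the unshared part. It was 2.04% for Rps27 and 17.6% for Rps6, and 53 of the 82 members had at least 1 annotated pseudogene at 95% identity or more over at least 50% of the mRNA, with up to 37 for a single member. Among the 74 tested members, CPM per kilobase of mRNA had a median of 13.6 in the 9 members with less than 25% unshared windows and of 97.2 in the 24 members with 90% or more. The same medians were 76.0 and 149 in FPKM. Across the 74 members the unshared part correlated with CPM per kilobase (Spearman's rho 0.54) more than with FPKM (rho 0.27), a description over genes that share 6 libraries. The 90th percentile of the members' levels was 42.7 times the 10th percentile in CPM per kilobase and 9.26 times in FPKM. Compared per length, Rpl28 had 4.05 CPM per kilobase but 145 FPKM, although 72.3% of its windows were unshared. How the authors handled reads that match several places is not stated in the labels or file headers.

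**Figure D2:**
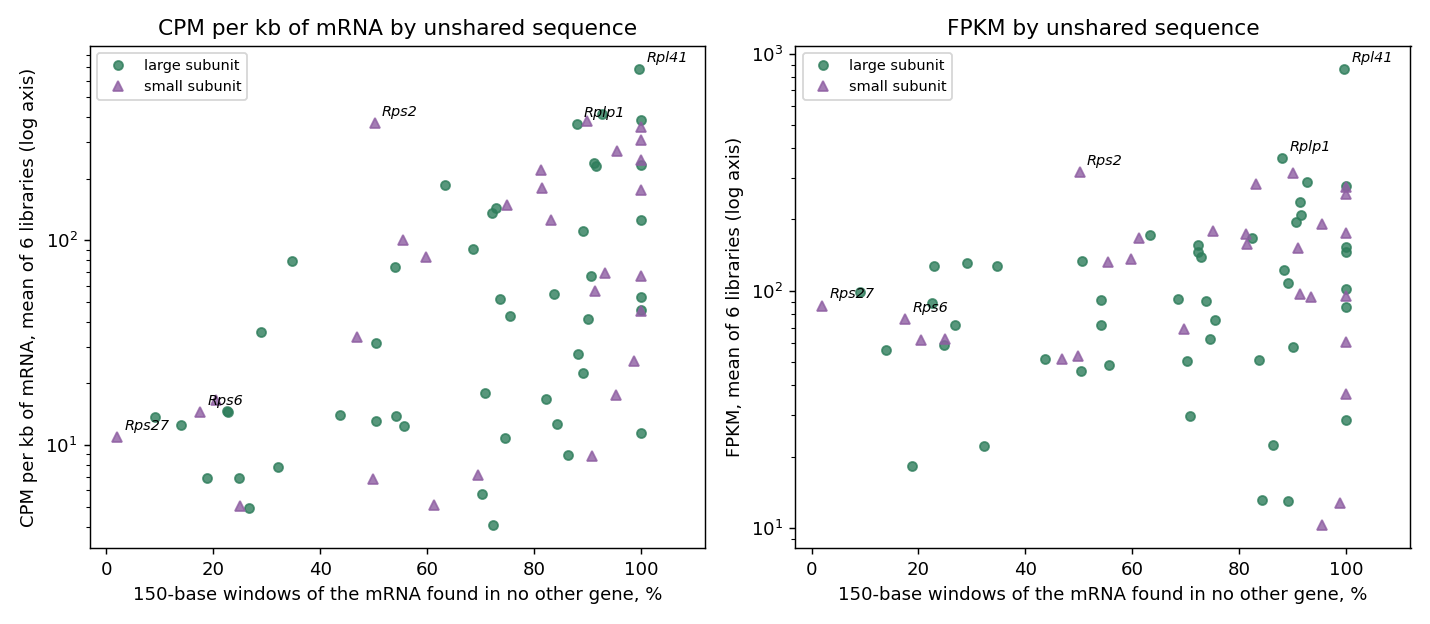
Level of the 74 tested members (mean of 6 libraries, log axes) in CPM per kilobase of mRNA on the left and in FPKM on the right, against the percentage of 150-base windows of the mRNA that no other gene holds. Members with few unshared windows, such as Rps27 at 2.04%, lie low in CPM per kilobase and closer to the others in FPKM.

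Of the 8 members that did not pass the filter on low counts, Rpl3l, Rpl10l, Rpl39l and Rpl32l were low in both kinds of file. The other 4 had FPKM values of normal size. Rps10 and Rps18, both in the head of the small subunit, were listed at 0 counts in every library but had 35.1, 62.4 and 30.3 FPKM (Rps10) and 99.05, 158 and 91.5 FPKM (Rps18) in knockdown libraries, against 67.0, 57.1 and 79.0 FPKM (Rps10) and 117, 142 and 248 FPKM (Rps18) in control libraries. Rps28 had 1 count in control replicate 2 and 0 elsewhere, yet 49.8, 52.5 and 30.9 FPKM in knockdown against 46.5, 56.2 and 75.3 FPKM in control libraries. Rps4l had 2 to 10 counts per library and 41.8, 65.4 and 34.1 FPKM in knockdown against 61.9, 59.8 and 84.2 FPKM in control libraries. All 4 of these genes are listed in the count tables again under a suffix. So is Rpl10a, which had 286 to 527 counts under its own symbol. With the counts of suffix rows and pseudogenes added, the number of members tested stayed at 74. Where the reads of these genes were counted was not settled. Because of their FPKM, their counts at or near 0 are not read as absence.

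No cytosolic ribosomal protein gene differed between knockdown and control cultures past the threshold. EdgeR's quasi-likelihood test called 0 of 74 tested members at an adjusted p under 0.05, where it called 0 of all 17439 genes tested (0%). At an unadjusted p under 0.05 it held 0 members, against 1.10% of all genes, and DESeq2 and limma voom called 0 members too. Of the 74, 35 were higher and 39 lower in the knockdown libraries, with log2 fold changes from -0.41 for Rpl28 to 0.28 and a median of -0.01, equal to the -0.01 over all genes tested. The median was -0.01 for the 46 large subunit genes and -0.04 for the 28 small subunit genes. The typical size of a change, up or down, was 0.07 on the log2 scale for members and 0.09 for all genes. The 95% interval of the fold change lay within 1.5-fold in either direction for 60 of 74 members and within 2-fold for 74 of 74. Within 1.5-fold lay the intervals of 65.0% of all genes tested and of 78.1% of those with at least 1 CPM.

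**Figure D3:**
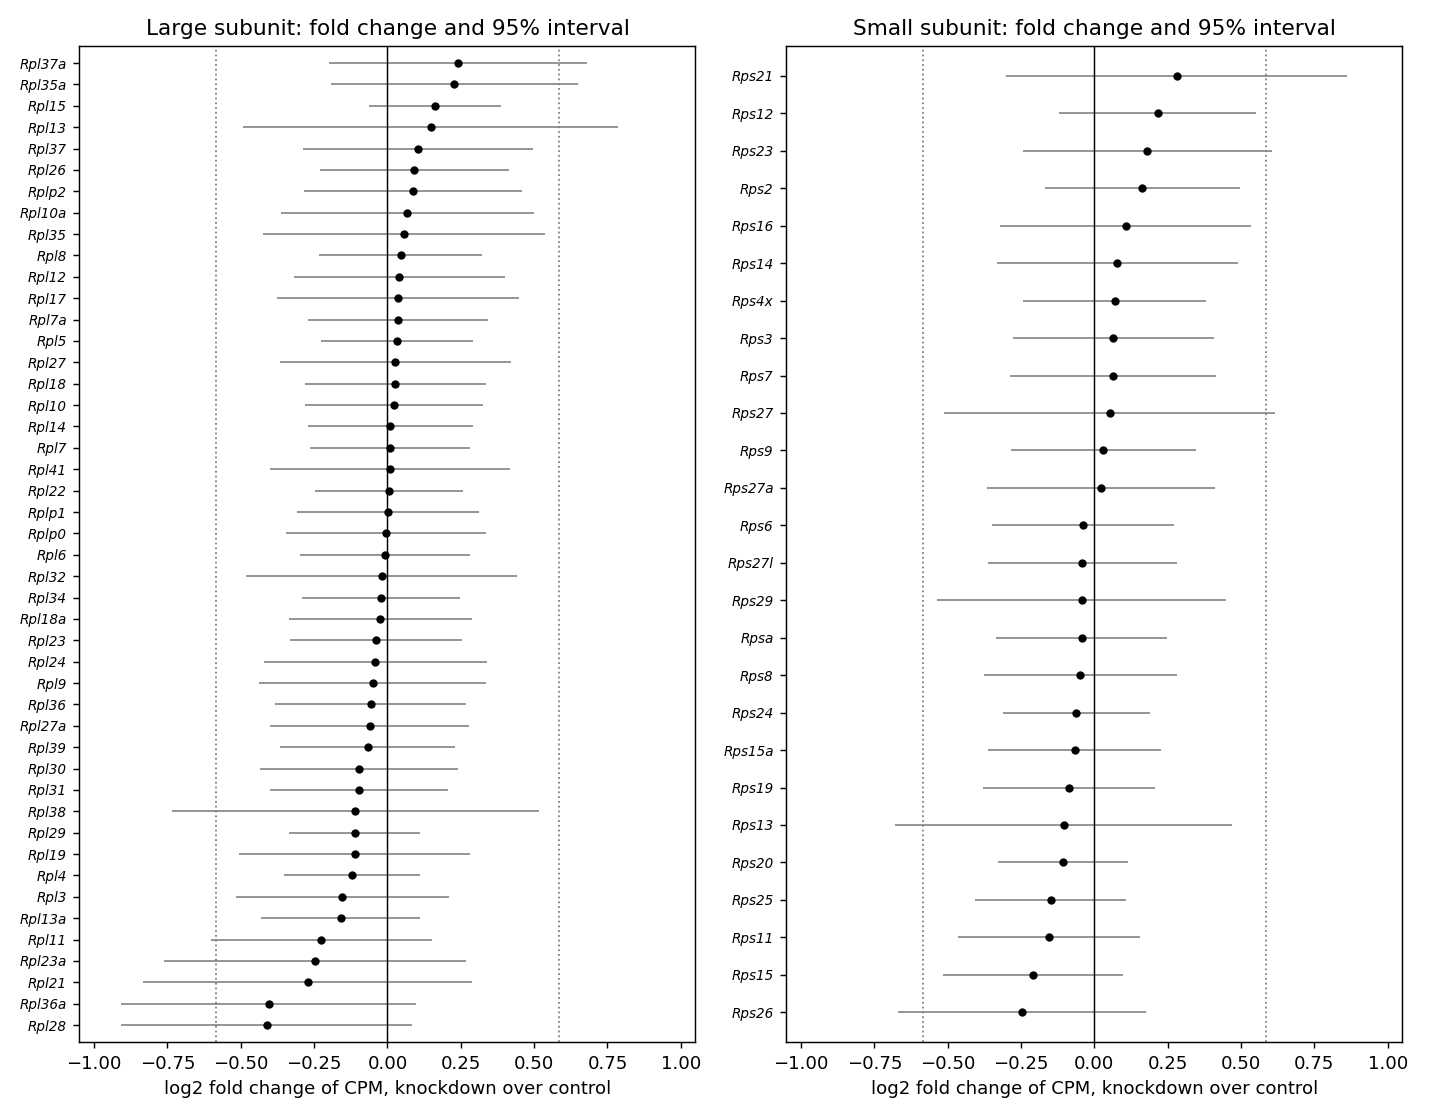
Log2 fold change of CPM, knockdown over control, for the tested large and small subunit genes reported here (points), with 95% intervals (lines) and dotted lines at a 1.5-fold change in either direction. Every interval includes 0, and the values run from -0.41 for Rpl28 to 0.28.

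Among large subunit genes the smallest p belonged to Rpl28, a protein that budding yeast lacks. Rpl28 had 4.11, 3.77 and 3.68 CPM in knockdown libraries against 6.42, 5.31 and 3.597 CPM in control libraries, so that control replicate 3 was the lowest of all 6. Its log2 fold change was -0.41 ± 0.23 (SE) with an unadjusted p of 0.0949 and an adjusted p of 1.00 in edgeR's test. Rpl36a, which lies near the tRNA exit site, had 3.19, 3.05 and 2.41 CPM in knockdown against 4.61, 3.03 and 3.81 CPM in control libraries. Its log2 fold change was -0.41 ± 0.23 (SE), with an unadjusted p of 0.103 in the same edgeR fit. Control replicate 2 fell inside the knockdown range. Rpl15, next by p, is described below, and Rpl11 and Rpl13a, which followed it, had log2 fold changes of -0.23 ± 0.17 and -0.16 ± 0.12 (SE).

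Rpl15, which encodes a core protein of the large subunit, was the only tested member whose groups did not overlap in CPM. It had 117, 99.6 and 99.1 CPM in knockdown libraries against 96.0, 87.7 and 98.8 CPM in control libraries. The lowest knockdown value and the highest control value were almost equal. The log2 fold change was 0.16 ± 0.10 (SE), with a 95% interval from -0.06 to 0.39, an unadjusted p of 0.142 and an adjusted p of 1.00 in edgeR's test. Groups that did not overlap were found in 5.20% of all genes tested, and with knockdown higher in 2.28%, so 1 of 74 members was below that share. In FPKM, Rpl15 was 73.3, 95.6 and 74.1 in knockdown against 81.0, 90.7 and 129 in control libraries, the opposite direction, with groups that overlapped.

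Among small subunit genes Rps15, Rps12, Rps26 and Rps25 were among those with the smallest p. Rps15 had 153, 167 and 111 CPM in knockdown against 167, 156 and 175 CPM in control libraries, a log2 fold change of -0.21 ± 0.14 (SE). For Rps15, 1 knockdown library lay within the control range. Rps12 had 12.2, 9.78 and 9.15 CPM in knockdown against 8.42, 9.02 and 9.35 CPM in control libraries, a log2 fold change of 0.22 ± 0.15 (SE). Rps26 stood at -0.25 ± 0.19 and Rps25, which some viral mRNAs need for initiation, at -0.15 ± 0.12 (log2 fold change ± SE). All had an adjusted p of 1.00 in edgeR's test.

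Members with known roles outside protein synthesis gave no call either. Rpl5 and Rpl11 bind 5S ribosomal RNA and, when free of ribosomes, the ubiquitin ligase Mdm2, which releases p53. Rpl5 had 31.7, 26.1 and 28.2 CPM in knockdown libraries against 30.3, 27.3 and 26.4 CPM in control libraries, a log2 fold change of 0.03 ± 0.12 (SE). Rpl11 had 11.9, 9.28 and 9.10 CPM in knockdown against 14.03, 9.85 and 11.5 CPM in control libraries. Only control replicate 1 stood above all knockdown libraries for Rpl11. Rps6 differed by -0.04 ± 0.14 and Rps27l by -0.04 ± 0.15 (log2 fold change ± SE), with unadjusted p of 0.786 for each gene in edgeR's test. Rpl10, which completes the large subunit late in its assembly, stood at 0.02 ± 0.14, Rpl39, at the peptide exit tunnel, at -0.07 ± 0.14, Rpl3, near the peptidyl transferase centre, at -0.15 ± 0.16, and Rps27 at 0.05 ± 0.26.

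Summed over members, the transcripts of either subunit differed between knockdown and control cultures by less than the spread between libraries. Large subunit genes summed to 3836, 3844 and 3049.9 CPM in knockdown libraries and 3246, 3548 and 4042 CPM in control libraries. Small subunit genes summed to 3367, 3404 and 2611 CPM in knockdown and 2754, 3072 and 3554 CPM in control libraries. Both subunits were lowest in knockdown replicate 3 and highest in control replicate 3, and the groups overlapped. The log2 ratio of the group means was -0.01 for the large subunit and 0.00 for the small subunit, where the SD between libraries on the log2 scale was 0.18 and 0.20. The ratio of large to small subunit CPM was 1.14, 1.13 and 1.17 in knockdown and 1.18, 1.15 and 1.14 in control libraries. This ratio moved less than either sum, and it carries the limit that pseudogenes take reads from members unequally. The small subunit sum also holds almost no counts of Rps10, Rps18 and Rps28, which had FPKM values of normal size. In FPKM the ratio of large to small subunit was 1.44, 1.42 and 1.46 in knockdown and 1.33, 1.41 and 1.41 in control libraries. In that unit every knockdown library stood above every control library, a difference that was not tested. Together the members took between 0.584% and 0.718% of the counts in knockdown libraries and between 0.586% and 0.775% in control libraries.

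The members moved together from library to library within each group. Each member's deviation from its own mean over the 6 libraries, on the log2 CPM scale, had a median of 0.14, 0.08 and -0.24 in knockdown replicates 1, 2 and 3 and of -0.10, -0.04 and 0.18 in control replicates 1, 2 and 3. In knockdown replicates 1, 2 and 3, 59, 51 and 3 of the 74 members lay above their own mean, and in control replicates 1, 2 and 3, 20, 29 and 64 did. The spread between replicates of a group thus exceeded the difference between groups for the members as a whole. The median correlation between members over the 6 libraries was 0.56 over 2701 pairs, and 0.69 among the 35 members with at least 50 CPM, a description over pairs that share libraries and scaling. Over all genes tested the medians of the 6 libraries lay within 0.01 of 0, which scaling over those same genes makes likely. The pattern was not particular to the members. Of 74 mitochondrial ribosomal protein genes, 7 lay above their own mean in knockdown replicate 3 and 64 in control replicate 3, with medians of -0.14 and 0.12. In the same 2 libraries 0 and 7 of 7 ribosomal proteins outside the symbol pattern did, 5 and 25 of 38 translation factors, and 14 and 30 of 61 ribosome assembly factors.

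**Figure D4:**
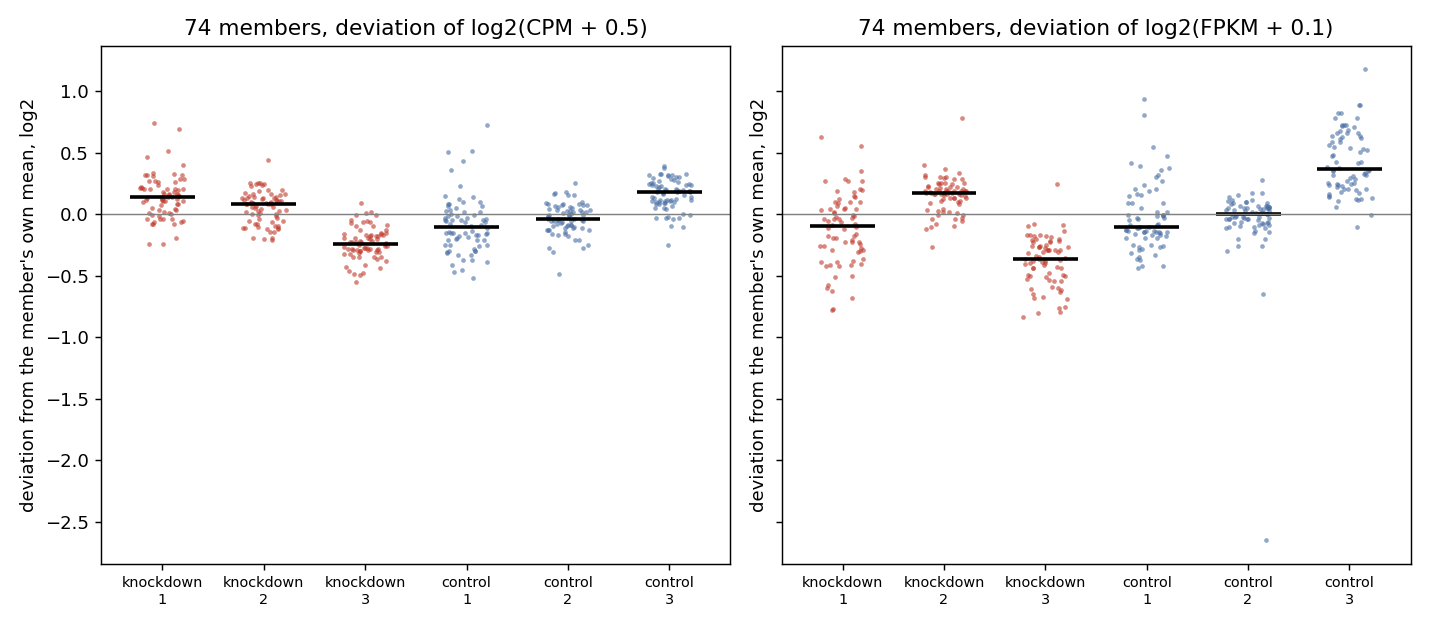
Deviation of each of the 74 tested members from its own mean over 6 libraries, in log2 CPM on the left and log2 FPKM on the right, with a bar at the median of each library and knockdown libraries left of control libraries. In CPM, knockdown replicate 3 lies low at -0.24 and control replicate 3 high at 0.18. In FPKM, knockdown replicate 1 lies below 0 rather than above it.

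Other measures moved with this pattern in part. Other protein-coding genes with an mRNA of at most 600 bases (134 genes) had medians of 0.06, -0.02 and -0.16 in knockdown and 0.04, -0.04 and 0.12 in control libraries. The range of the medians between libraries was 0.28 in those genes, 0.23 in 627 genes of 600 to 1000 bases, 0.14 in 2868 genes of 1000 to 2000 bases and 0.04 in 5822 genes of 2000 to 4000 bases. In the 4442 genes over 4000 bases it was 0.09 in the other direction, with medians of -0.03, -0.00 and 0.05 in knockdown and 0.03, 0.01 and -0.05 in control libraries. The ribosomal RNA gene Rn28s1 took 4.49%, 3.17% and 1.01% of the counts in knockdown libraries and 4.02%, 2.90% and 2.98% in control libraries. A list of 10 ribosomal and other abundant structural RNAs, 8 of which were in the tables, includes Rn28s1, so these measures overlap. It summed to 68962, 55380.5 and 26212 CPM in knockdown replicates 1 to 3 and 64447, 50800.1 and 48146 CPM in control replicates 1 to 3. Both measures were lowest in knockdown replicate 3, as the members were, but among the control libraries both were highest in replicate 1, where the members were lowest. Dividing cell markers (13 of 13 tested) summed to 334, 293 and 305 CPM in knockdown and 423, 296 and 376 CPM in control libraries. Oligodendrocyte lineage markers (8 of 8 tested) summed to 355, 289 and 371 CPM in knockdown and 453, 299 and 469 CPM in control libraries, highest among knockdown libraries in replicate 3, where the members were lowest. Microglia markers, with Aif1 at 0 counts in all libraries, summed to 19.5 to 21.9 CPM in knockdown and 20.3 to 23.9 CPM in control libraries, and endothelial markers, with Cldn5 at 0, to 17.1 to 20.98 CPM in knockdown and 16.9 to 20.8 CPM in control libraries. The part of these measures in the members' levels was not tested. Without knockdown replicate 3, 54 members were higher and 20 lower in the knockdown libraries, with a median log2 fold change of 0.09. Without control replicate 3 the numbers were 51 and 23 with a median of 0.08, and without knockdown replicate 1 they were 14 and 60 with a median of -0.10. No member was called in any of these fits.

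In the authors' FPKM the same 74 members gave another picture. On the log2(FPKM + 0.1) scale, which understates changes of low genes, 14 members were higher and 60 lower in knockdown libraries, with a median log2 fold change of -0.20, where the median of all 14685 genes tested was -0.01. limma called 0 members and 0 of all genes (0%) at an adjusted p under 0.05, and 5 of the 74 had an unadjusted p under 0.05, against 4.29% of all genes. In 4 of the 74 all knockdown libraries were below all control libraries, against 4.30% of all genes, and the reverse held for 0, against 2.15%. The 4 were Rpl23, Rpl30, Rpl36a and Rps12, named here after their values were seen, and the counts of Rps12 ran the other way, at a log2 fold change of 0.22.

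The fall in FPKM was larger in the members with the least unshared sequence, but it was not confined to them. Of all 74 tested members, 60 were lower, including members between the 2 groups compared here. Rpl23, with 86.4% unshared windows, stood at -0.47 and Rps29, with 90.9%, at -0.61 in FPKM, both named after their values were seen. In the 17 members with under 50% unshared windows, 17 of 17 were lower in knockdown in FPKM, with a median log2 fold change of -0.45, whereas in counts 10 were higher and 7 lower, with a median of 0.02. In the 24 members with at least 90% unshared windows, FPKM gave 11 higher and 13 lower with a median of -0.01, and counts gave 11 higher and 13 lower with a median of -0.01. The shift in those 17 members was uneven over libraries. Its median deviation in log2 FPKM was -0.36, 0.20 and -0.55 in knockdown replicates 1, 2 and 3 and -0.11, 0.06 and 0.68 in control replicates 1, 2 and 3, while in log2 CPM it was 0.11, 0.03 and -0.17 in knockdown and -0.09, -0.09 and 0.19 in control libraries. The largest shift between the scales was thus in knockdown replicate 1 and control replicate 3. The summed FPKM of all genes also differed between libraries, at 409981, 683824 and 635998 in knockdown and 738351, 552425 and 981958 in control libraries, and its part in the result was not tested. A single member, Rpl37a, went far the other way in FPKM. Named after its values were seen, it had 140.2, 164 and 113 FPKM in knockdown against 89.0, 15.1 and 216 FPKM in control libraries, so that control replicate 2 stood apart, while its CPM was 21.9, 16.2 and 12.2 in knockdown against 13.6, 12.5 and 16.6 in control libraries.

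**Figure D5:**
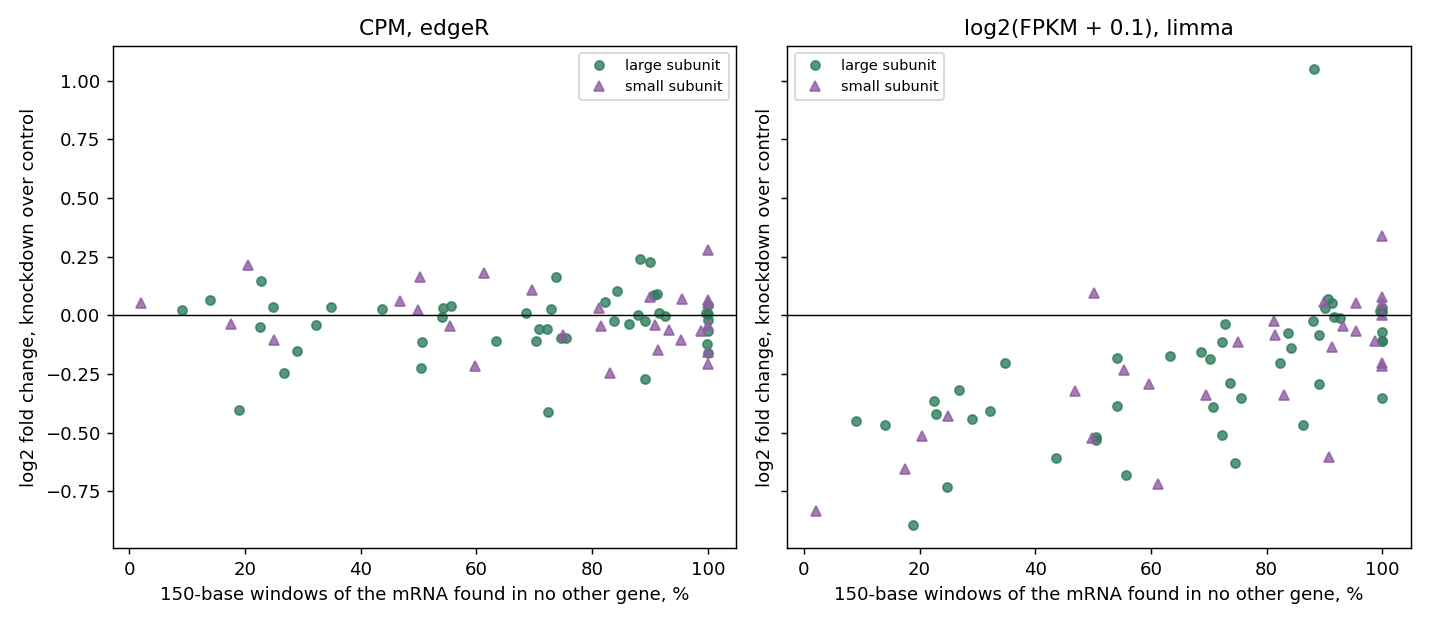
Log2 fold change, knockdown over control, of the 74 tested members in CPM (edgeR, left) and in log2(FPKM + 0.1) (limma, right) against the percentage of 150-base windows of the mRNA found in no other gene. Below 50% all 17 members lie under 0 in FPKM, with a median of -0.45, but on both sides of 0 in CPM. Rpl37a is the high point at the top right.

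Genes that act with the ribosomal proteins were not called in edgeR's test either, with 0 past the threshold in every list below. Of 7 ribosomal proteins and paralogs outside the symbol pattern, 2 were higher and 5 lower in knockdown. Rps27rt, among those with the smallest p, stood at a log2 fold change of -0.20. Translation factors and related genes, 38 of 39 tested, split into 17 higher and 21 lower with a median of -0.02. Naca, which binds nascent chains, stood at -0.33 and Eif3m, a subunit of initiation factor eIF3, at 0.15. Eif5a was listed at 0 counts in all libraries. The 61 ribosome assembly factors split into 30 higher and 31 lower with a median of -0.00, and the 2 with the smallest p, Nop10 and Gar1 of the H/ACA particles that modify ribosomal RNA, stood at -0.31 and -0.34. RNA polymerase I and its factors, which transcribe ribosomal RNA, gave 6 higher and 8 lower of 14, with Taf1c at 0.15 and Polr1d at 0.12. Regulators in the mTORC1 and Myc pathways gave 10 higher and 13 lower of 23, with Larp4 at -0.27 and Myc at -0.27, and Rps6kb2 was listed at 0 counts.

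Mitochondrial ribosomal protein genes, which serve the separate ribosome of the mitochondrion, gave 25 higher and 49 lower of 74 tested with a median of -0.05 and 0 called, and Mrpl20 and Mrpl54 stood at -0.58 and -0.40. Mrpl40, Mrps10 and Mrps23 were listed at 0 counts. Non-coding hosts of small nucleolar RNAs gave 5 higher and 10 lower of 15, with Snhg6 at -0.32 and Snhg20 at 0.26. The 8 tested pseudogenes named after a member gave 1 higher and 7 lower with a median of -0.15, with Rpl14-ps1 at -0.25 and Rps19-ps3 at -0.32, and they summed to 327, 398 and 312 CPM in knockdown and 329, 377 and 426 CPM in control libraries. The list of p53 and its targets, which free ribosomal proteins can raise through Mdm2, held 16 higher and 1 lower of 17 with a median of 0.15 and 4 genes at an unadjusted p under 0.05, where 1.10% of all genes had one. Knockdown replicate 1 stood apart, with 17 of 17 genes above their own mean and a median deviation of 0.36, against 7 and 8 of 17 and medians of -0.01 and -0.00 in knockdown replicates 2 and 3. Trp53inp1 stood at 0.39 and Pmaip1 at 1.36, and none of the 17 passed the adjusted threshold. The list was chosen with this result known, so its count is a description.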

How the data were processed

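Total RNA of 6 libraries was depleted of ribosomal RNA and sequenced as paired reads of 150 bases with a strand-keeping kit, per the labels' protocols. The authors deposited whole-number counts per gene, 1 table per library, and FPKM tables of the Cufflinks kind, per the file headers. The submitters' processing notes name bcl2fastq 2.20, Cufflinks 2.2.1, DESeq2 and GRCm38 (mm10). Which aligner and counter were used, and whether counting used strand, were not given in the sources used here, so overlapping and antisense genes are uncertain.

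Counts were fitted over all genes with edgeR 4.0.16 (R 4.3.3): filterByExpr, TMM, quasi-likelihood test, group alone, Benjamini-Hochberg threshold of 0.05. FPKM were tested with limma 3.58.1 on log2(FPKM + 0.1) at a mean of at least 0.5. Library deviations used log2(CPM + 0.5). Depth ran from 27248934 to 43646521 counts. The fit was checked on simulated counts drawn independently for each gene. They lacked the shared shifts between libraries seen here, so the check does not cover those. Sequence features came from GENCODE M21 and RefSeq (BLAST 2.17.0), with the principal transcript per gene.

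Alternatives were other scalings, filters, DESeq2 1.42.0, limma voom, a replicate block, leaving out each library, FPKM, and adding pseudogene counts. Splits by shared sequence were added after seeing the data. Members and lists were chosen with earlier results of these data known. Members named are the 5 of highest FPKM and of smallest p in each subunit, those whose groups do not overlap, those not tested, the paralog pairs, Rps6, Rpl5 and Rpl11, and for other lists the 2 of smallest p. A few genes chosen by it are left unreported.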

Additional observations from a re-analysis of the deposited data

How the results depend on the processing

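No member was called in any of the alternatives run, including the replicate block (0 members, 0 of all genes) and an adjusted p under 0.1. To look for pairs, each gene's log2 CPM was taken as a deviation from the mean of its group. Between same-numbered knockdown and control libraries these deviations, not the levels, correlated at 0.27, 0.32 and 0.02. Between differently numbered ones they correlated at -0.35 to 0.11. Numbers 1 and 2 thus gave the highest values, but not every pair was over 0.1 and the numbers were not taken as pairs. The block left 0 calls and put 1 member under an unadjusted p of 0.05. Over all genes the count of calls was 11 with no filter on low counts and 1 with DESeq2, against 0. On the FPKM scale the median log2 fold change of large subunit members became -0.20 with either pseudocount and a mean FPKM of at least 0.5, against -0.01, and of small subunit members -0.22 with either pseudocount or with no filter, against -0.04. That FPKM value covers 32 small subunit genes, 4 of them untested in counts, and over the 28 tested in both it was -0.17. The summed small subunit level in FPKM had a log2 ratio of -0.20, against 0.00. Leaving out 1 library in turn moved the median from -0.10 to 0.10 for the large and from -0.07 to 0.08 for the small subunit. The spread of levels among members, 9.26-fold in FPKM from the 10th to the 90th percentile, was 42.7-fold in CPM per kilobase, an alternative added after seeing the data. Of 450 values of 25 named members, 410 moved by less than the standard error, and of the 40 that moved further 27 were in FPKM and 13 left out 1 library. Counts of calls in 19 other lists stayed at 0 in 341 of 341 values. Members near 3 CPM had standard errors above 0.2 log2 units, so small changes were not detectable there. Some members of higher level had them too, such as Rpl13 (0.29 at 11.3 CPM), Rps21 (0.26 at 26.4 CPM) and Rpl21 (0.255 at 41.9 CPM). The median standard error over the 74 tested members was 0.15.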

Other observations

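Many ribosomal protein genes carry small nucleolar RNAs, which guide modification of ribosomal RNA, in their introns. Of the 74 tested members, 29 held at least 1 annotated small nucleolar RNA inside the gene and 45 held none. The median level was 22.6 CPM per kilobase of mRNA in members with such an RNA and 53.1 CPM per kilobase in those without. CPM per kilobase also ran lower in members with little unshared sequence, as given above. Members with such an RNA included Rpl10 and Rps12, at 9.08% and 20.5% unshared windows, and also Rpl13a at 100%. The part of shared sequence in the 2 medians was not tested, so they are not read as a difference in expression. The median log2 fold change, knockdown over control, was -0.02 in members with one and 0.00 in those without. These are descriptions over genes, with no test.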
